A study of Mus musculus with 96 samples.

Results

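The bins of mouse chromosomes 15 and 16 were described in nuclei of a pancreatic cancer cell line that had been sorted by DNA content. Every bin of these 2 chromosomes was taken. The chromosomes and the parts of 16 were themselves chosen with earlier results of these data known. Their higher copies in 2N+ are therefore described here and not tested. The bins number 395 of the 4906 of the genome, with 203 on chromosome 15 and 192 on chromosome 16, and their median width is 486 kb. Both chromosomes had more copies in 2N+ nuclei than in 2N nuclei, but in different ways. Chromosome 15 was present mostly as a whole at 2 or 3 copies. Chromosome 16 most often either had the same rounded copies at both ends and between them, or carried a recurrent pattern of 2 low parts between gained stretches.

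Mouse chromosomes have their centromere at one end, so that each carries a single long arm, and bins are counted here from that centromeric (proximal) end to the distal one. When a cell divides with an unequal share of chromosomes, whole chromosomes are gained or lost, and every bin of the chromosome changes by the same number of copies. A break within a chromosome followed by loss or gain of a fragment instead leaves a step between neighbouring bins. Gain of all or part of chromosome 15, which carries the growth regulator Myc, is a frequent change in mouse tumours, and the distal stretch of chromosome 16 shares its genes with the human chromosome whose trisomy causes Down syndrome.

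The line was KPC1199EGFP, derived from pancreatic tumour cells on the C57BL/6 background and expressing the green fluorescent protein EGFP. Adherent cells at passage 9, grown without treatment, were lysed in a buffer with the DNA dye DAPI, their nuclei were sorted by DNA content, and the DNA was amplified with the SeqXE kit and sequenced. The 2N+ gate gave 35 single nuclei, the 4N gate 12 and the 2N gate 47, with 1 bulk library each for 2N+ and 2N. All of them share the line, the passage and the lack of treatment, and the labels name no second culture. Each gate is therefore 1 sample of many nuclei, so no test between gates was run. Each SD is the spread among nuclei. Intervals in parentheses are exact 95% intervals after Clopper and Pearson, and they hold the error of counting nuclei and nothing else.

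The deposited values are segmented ratios with no read depth behind them that could be seen, so the counting noise of a single bin is unknown. Copies are the ratio times a multiplier chosen for each nucleus so that its autosomal bins came closest to whole numbers. The multiplier lay between 2 and 3 in all 35 nuclei of 2N+ and all 47 of 2N, and in 8 of 12 nuclei of 4N. Copies stood far from whole numbers in 8 nuclei (residual above 0.15) and more than 60 breakpoints were present in 6, which together with overlaps made 12 of 94 nuclei. Library index numbers ran from 49 to 83 in 2N+, from 85 to 96 in 4N and from 1 to 48 in 2N, so the position in the index and the gate cannot be told apart. No pair of libraries held identical values.

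The 2 chromosomes differ in the genes they carry. A list of 17 genes of chromosome 15 and 21 of chromosome 16 was placed by RefSeq's gene table of the assembly GRCm38.p6. Since the bins are in mm9, the table was used for chromosome and order alone and no gene was given a bin or a value. All 17 and all 21 genes were found on the chromosome in question. From the centromere outwards, chromosome 15 carries Ghr, Osmr and Lifr, which encode receptors for growth hormone, oncostatin M and leukaemia inhibitory factor. Next come Trps1, a transcriptional repressor, Rad21, a cohesin subunit, Ext1, an enzyme of heparan sulphate synthesis, and Has2, a hyaluronan synthase. Myc follows as number 205 of 776 protein-coding genes, with the long noncoding RNA Pvt1 beside it. Further out lie Ndrg1, the focal adhesion kinase gene Ptk2, Sox10, the growth factor gene Pdgfb, the acetyltransferase gene Ep300, the epithelial keratins Krt8 and Krt18, and Hoxc6.

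On chromosome 16, Crebbp, the partner acetyltransferase of Ep300, and the adaptor gene Crkl lie towards the centromere. Sst (the hormone somatostatin), Bcl6 (a transcriptional repressor), Cldn1 (a tight junction protein), Hes1 (a target of Notch signalling) and the mucin gene Muc4 come after them. Robo1 and Robo2, receptors for Slit guidance cues, and Nrip1, a corepressor of nuclear receptors, lie further out. They are followed by App, the amyloid precursor gene, the proteases Adamts1 and Adamts5, the exchange factor gene Tiam1 and the superoxide dismutase gene Sod1. The interferon receptor gene Ifnar1, Runx1 (number 641 of 679 protein-coding genes), the kinase gene Dyrk1a and the ETS factors Erg and Ets2 lie near the distal end.

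**Figure D1:**
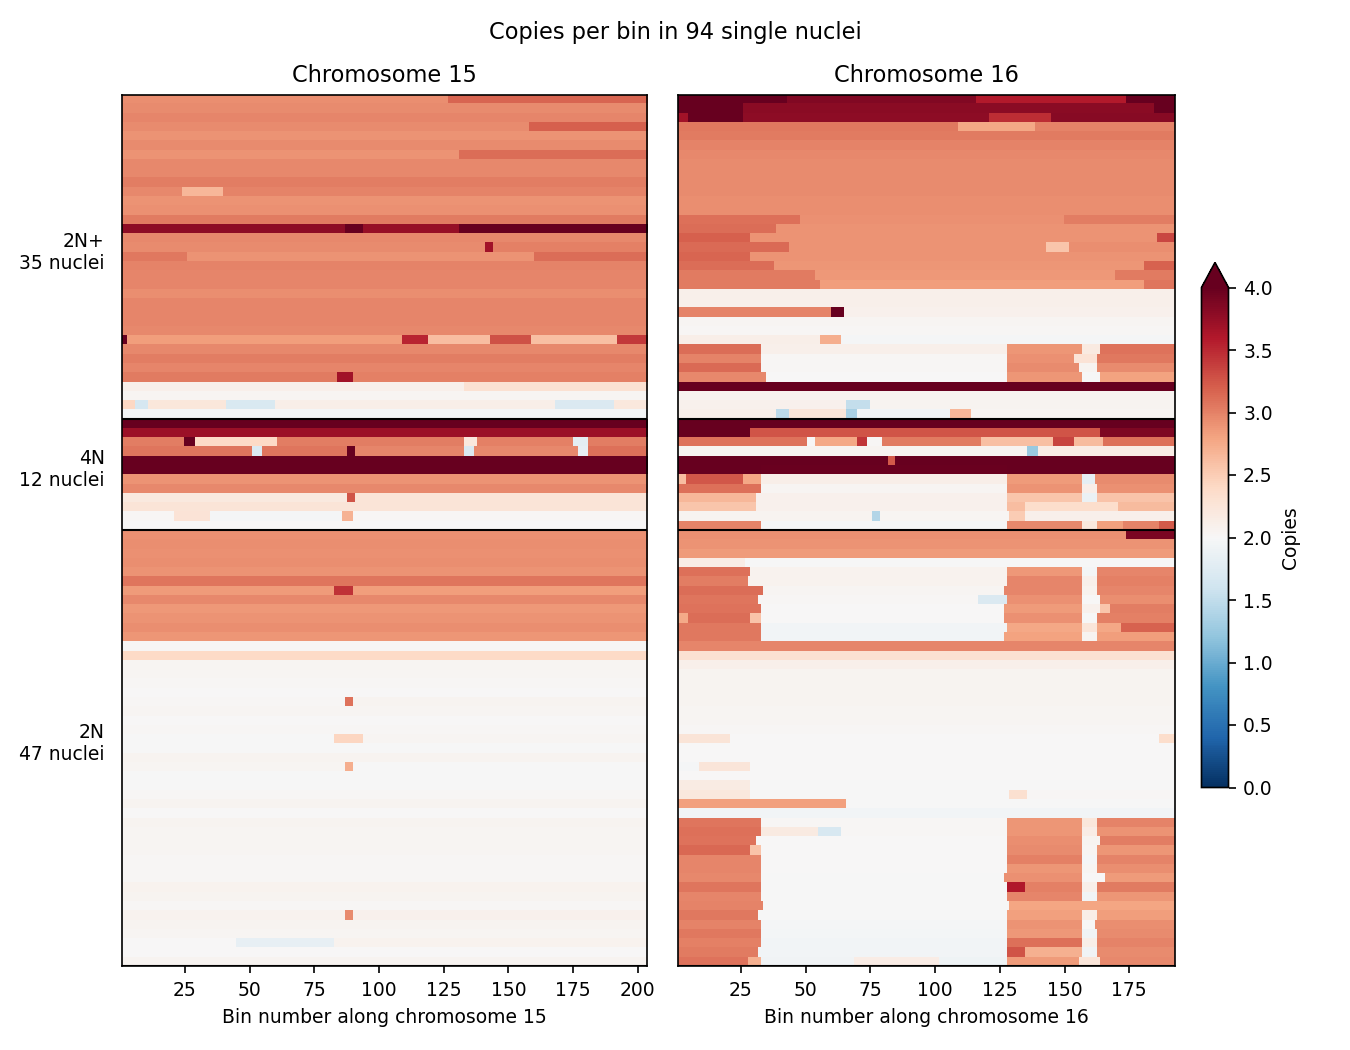
Copies per bin (colour, 0 to 4 with darker red above) along chromosomes 15 (left) and 16 (right) by bin number, 1 row per nucleus, for 35 nuclei of 2N+, 12 of 4N and 47 of 2N from top to bottom. Rows within a gate are ordered by copies of 15 and then by the state of 16. Chromosome 15 is mostly of 1 colour from end to end, whereas the same 2 gaps recur on chromosome 16 in 24 and 23 nuclei of 2N.

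Chromosome 15 stood at 3 copies or more (median over its bins at or above 2.5) in 31 of 35 nuclei of 2N+, which is 88.6% (73.3 to 96.8%). In 2N the count was 12 of 47, or 25.5% (13.9 to 40.3%). Over 2N+ nuclei the lowest copy value of chromosome 15 was 1.96, the median 2.96 and the highest 3.78. In 2N nuclei the lowest was 1.99, the median 2.05 and the highest 3.06. The 2 gates overlap over most of their range, since each holds nuclei near 2 and near 3 copies, and the medians differ by nearly 1 copy.

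Rounded to whole copies, 2N+ had 4 nuclei at 2, 30 at 3 and 1 at 4, against 35 at 2 and 12 at 3 in 2N. The 4 nuclei of 2N+ at 2 copies were nuclei 22, 24, 25 and 30, with 2.12, 1.96, 2.04 and 2.10 copies. The single nucleus at 4 was nucleus 34 of 2N+, with 3.78 copies. The 30 nuclei of 2N+ at 3 copies averaged 2.96 ± 0.0441, and the 12 nuclei of 2N at 3 copies 2.92 ± 0.0558 (SD). The 4 nuclei of 2N+ at 2 copies averaged 2.06 ± 0.0740, and the 35 of 2N 2.04 ± 0.0654 (SD). States are rounded copies and the multiplier brings bins close to whole numbers, so levels near whole copies and alike between gates are partly built in. Only 1 of the 82 nuclei lay between 2.3 and 2.7 copies, nucleus 24 of 2N at 2.40, whose residual from whole copies was 0.161.

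Both ends of chromosome 16 and its inner part were taken apart. The proximal end runs from chr16:1-18611455 in mm9 (31 bins), the inner part from chr16:18611456-66290027 (96 bins, 47.7 Mb), and the distal end from 66290028 to the last bin (65 bins). The inner part reached 3 copies or more in 22 of 35 nuclei of 2N+ (62.9%, interval 44.9 to 78.5%) and in 4 of 47 of 2N (8.51%, interval 2.37 to 20.4%). The proximal end was at 3 or more in 27 of 35 nuclei of 2N+ (77.1%, interval 59.9 to 89.6%), against 29 of 47 in 2N (61.7%, interval 46.4 to 75.5%). For the distal end the counts were 26 of 35 in 2N+ (74.3%, interval 56.7 to 87.5%) and 28 of 47 in 2N (59.6%, interval 44.3 to 73.6%). The intervals of the gates lie apart for the inner part and overlap for both ends.

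Copies of the inner part ranged over 2N+ nuclei from 1.98 to 4.69 with a median of 2.90, and over 2N nuclei from 1.93 to 2.97 with a median of 2.01. Copies of the proximal end ranged from 2.03 to 5.18 with a median of 2.99 in 2N+, and from 1.95 to 3.15 with a median of 2.97 in 2N. For the distal end the range was 1.98 to 4.69 with a median of 2.92 in 2N+, and 1.95 to 3.04 with a median of 2.85 in 2N. The medians of the ends were thus alike, and the median of the inner part was nearly 1 copy higher in 2N+ than in 2N.

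**Figure D2:**
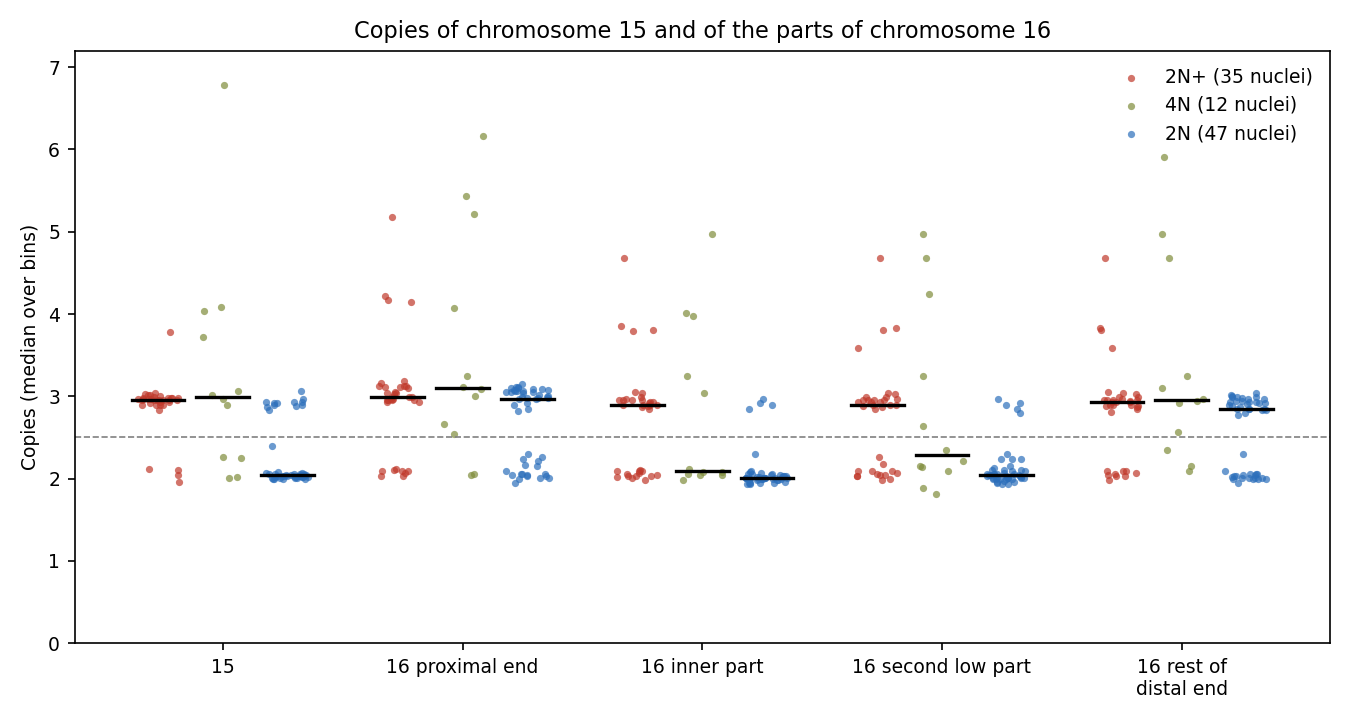
Copies (median over the bins of each part, vertical axis) of chromosome 15 and of 4 parts of chromosome 16 in each nucleus of 2N+ (red), 4N (green) and 2N (blue). Points are nuclei, black lines are medians of the gate, and the dashed line marks 2.5 copies. For the inner part the median is 2.90 in 2N+ and 2.01 in 2N, while for the proximal end it is 2.99 in 2N+ and 2.97 in 2N.

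The plot of copies by part shows the same split within nuclei. Taken as rounded copies of the proximal end, inner part and distal end, 18 of 35 nuclei of 2N+ were at 3, 3 and 3, against 4 of 47 in 2N. The pattern 3, 2 and 3 was present in 4 nuclei of 2N+ and in 24 of 2N. An even 2, 2 and 2, where even means the same rounded copies in the 3 parts, was present in 8 nuclei of 2N+ and 18 of 2N. A further 3 nuclei of 2N+ were at 4, 4 and 4, and nucleus 30 of 2N+ was at 5, 5 and 5, with a residual of 0.163. The 4 nuclei of 2N that were even at 3 copies were nuclei 8, 16, 25 and 35, with 2.85, 2.90, 2.97 and 2.92 copies in the inner part. No nucleus of 2N had 4 or more copies of any of these 3 parts, as the median over its bins.

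By the difference within a nucleus, the inner part lay at least 0.5 copies below both ends in 4 of 35 nuclei of 2N+ (11.4%, interval 3.20 to 26.7%). In 2N it did so in 24 of 47 (51.1%, interval 36.1 to 65.9%). The 4 nuclei of 2N+ averaged 3.05 ± 0.0831 copies at the proximal end, 2.04 ± 0.0462 in the inner part and 2.92 ± 0.102 in the distal end without its own low part described next (SD). The 24 nuclei of 2N averaged 3.05 ± 0.0517, 1.99 ± 0.0364 and 2.92 ± 0.0739 in the same order (SD). The median ratio of inner part to proximal end, which does not depend on the multiplier, was 0.676 in the 4 nuclei of 2N+ and 0.651 in the 24 of 2N. One by one, nuclei 5, 7, 13 and 20 of 2N+ had 2.00, 2.02, 2.11 and 2.03 copies in the inner part, against 2.96, 3.13, 3.11 and 2.997 at the proximal end of the same nuclei. These nuclei were chosen by that difference, so its direction is given and not a result. The ratios of the 2 gates lay close together, and the shares of nuclei that carried the pattern had intervals apart.

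The proximal end was slightly higher than the distal end in these nuclei, by a median of 0.17 copies in 2N+ and 0.18 in 2N. This is less than 1 copy and was not tested for its source.

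A second low part lay within the distal end, at chr16:80661654-83740531 (6 bins, 3.08 Mb). Its borders were taken from the commonest steps in the distal end after the values were seen. It lay at least 0.5 copies below the rest of the distal end in 4 of 35 nuclei of 2N+ (11.4%, interval 3.20 to 26.7%). In 2N it did so in 23 of 47 (48.9%, interval 34.1 to 63.9%). In the 4 nuclei of 2N+ with a low inner part it averaged 2.12 ± 0.123 copies, and in the 24 of 2N 2.09 ± 0.174 (SD). The 2 low parts are separated by 14.4 Mb of bins at about 3 copies, yet they went together. All 4 nuclei of 2N+ with a low inner part also had the second low part, and so did 23 of 24 in 2N. The exception was nucleus 10 of 2N, with 1.99 copies in the inner part and 2.79 in both the second low part and the rest of the distal end.

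No nucleus of 2N+ or 2N had the second low part without a low inner part. In 2N+ it was absent from all 8 nuclei even at 2 copies, all 18 even at 3 and all 4 even at 4 or more. In 2N it was absent from all 18 nuclei even at 2 and all 4 even at 3. Nuclei with a gained inner part were therefore gained across the second low part as well.

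**Figure D3:**
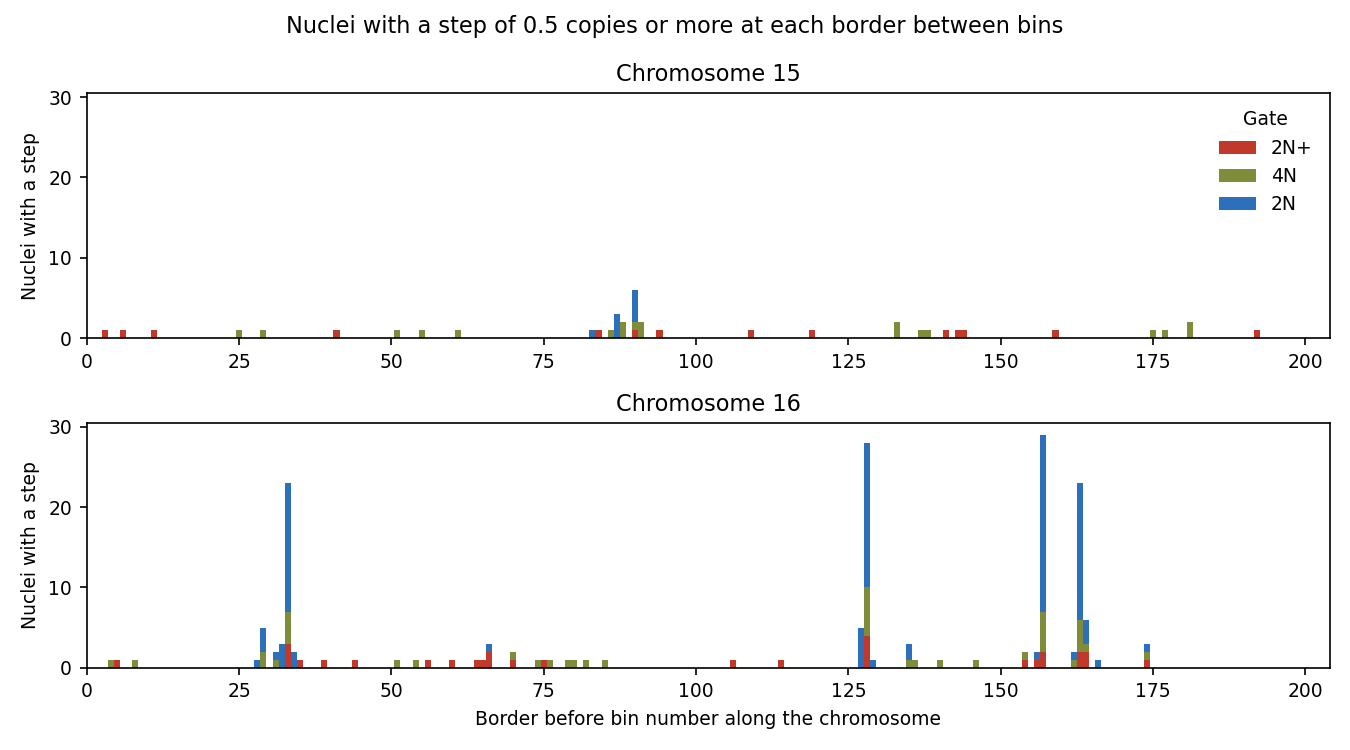
Number of nuclei (vertical axis, bars stacked by gate, 2N+ red, 4N green, 2N blue) with a step of at least 0.5 copies at each border between neighbouring bins of chromosomes 15 (top) and 16 (bottom), by bin number. On chromosome 16 the 4 tall bars are the borders of the 2 low parts, with 23, 28, 29 and 23 nuclei at the single bin. On chromosome 15 the tallest bar holds 6 nuclei.

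The steps on chromosome 16 fell at few places. There were 170 steps of 0.5 copies or more in 94 nuclei, of which 21 were in nuclei with more than 60 breakpoints. With steps in 1 direction within 2 bins counted as 1 position, they fell at 27 positions, of which 13 were seen in 1 nucleus each. Of the 191 borders between its bins, 7 (3.66%) had a step in 5 or more nuclei, against 0.614% of all 4883 borders of chromosomes 1 to X. Chromosome 15 had 1 such border among 202 (0.495%).

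The downward step into the inner part was centred at 19135649 in 31 nuclei (4 of 2N+, 5 of 4N and 22 of 2N), 23 of them at this very bin. In 6 nuclei (2 of 4N and 4 of 2N) a downward step lay at 17206229. Both positions together were seen in 35 nuclei, so some nuclei had a step at each. The upward step out of the inner part was at 66290028 in 34 nuclei (4 of 2N+, 6 of 4N and 24 of 2N), 28 of them at this bin. The second low part began at 80661654 in 31 nuclei (3 of 2N+, 5 of 4N and 23 of 2N), 29 at this bin. It ended at 83740532 in 31 nuclei (4 of 2N+, 6 of 4N and 21 of 2N), 23 at this bin. The same 4 borders recurred in all 3 gates to within 2 bins in most carriers.

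All 33 nuclei with a low inner part over the 3 gates had a step at each side of it, by the positions above. A step was also present at the start of the second low part in 30 of the 33 and at its end in 29, and all 4 borders were present in 28. Of the 61 other nuclei, none had all 4 borders, which the same choice also largely sets. The few that had 1 or more of them were nuclei 1, 2 and 12 of 4N, whose residuals from whole copies were high, at 0.196, 0.206 and 0.183.

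One further position on chromosome 16 was seen in 5 nuclei, a downward step at 35088674 within the inner part (4 of 2N+ and 1 of 2N). It includes the 2 nuclei of these gates whose copies were 3, 2 and 2. Only 3 of the 5 nuclei had the step at this very bin. Without nuclei with more than 60 breakpoints, 5 positions on chromosome 16 instead of 6 had 5 or more nuclei, and this one was not among them. In nucleus 28 of 2N+ the chromosome was at 2.99 copies before 32298762, at 5.72 copies over chr16:32298762-34628957 (5 bins), and at 2.09 from 34628958 on. Its downward step was counted at 35088674 because it lay within 2 bins. In nucleus 12 of 2N it was at 2.82 copies before 35088674 and at 1.99 from there on, with no such peak. A short higher stretch was also present in nucleus 47 of 2N, at 3.61 copies over chr16:66290028-69797010 (7 bins), which begins at the distal border of the inner part. The distal end of that nucleus stood at 3.04 copies, so the stretch lay less than 1 copy above it. A downward step at the far side of this stretch was present in 4 nuclei (2 of 2N and 2 of 4N).

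At least 1 step was present on chromosome 16 in 10 of 35 nuclei of 2N+ (28.6%, interval 14.6 to 46.3%). In 2N it was present in 26 of 47 (55.3%, interval 40.1 to 69.8%), and the 2 intervals overlap. These counts depend on the least step. With any change above 0.02 in ratio they were 21 of 35 in 2N+ (60%) and 31 of 47 in 2N (65.96%), and their intervals overlap as well. The median number of steps was 0 in 2N+ and 2 in 2N, and the highest was 6 in 2N+ and 5 in 2N. On chromosome 15 a step was present in 5 of 35 nuclei of 2N+ and 4 of 47 of 2N, and the median was 0 in both. With any change above 0.02 in ratio the counts were 11 of 35 in 2N+ and 6 of 47 in 2N. Of the 41 steps on chromosome 15 over all gates, 26 were in nuclei with more than 60 breakpoints, and 15 of its 23 positions were seen in 1 nucleus each.

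The 2 positions of chromosome 15 that recurred in 5 or more nuclei were the sides of 1 short stretch, an upward step at 46739232 in 6 nuclei and a downward one at 48262748 in 8. Counted at the exact bin, or without nuclei with more than 60 breakpoints, 1 position had 5 or more nuclei. This stretch, chr15:46739232-48262747 (3 bins, 1.52 Mb), was chosen after the values were seen. It lay 0.610 to 1.04 copies above the rest of chromosome 15 in 8 nuclei, and at least 0.7 copies above it in 5. They were nucleus 5 of 2N+, nuclei 7, 10 and 12 of 4N, and nuclei 9, 14, 26 and 39 of 2N. In nucleus 5 of 2N+ the stretch stood at 3.68 copies against 3.01 in the rest of the chromosome. In nucleus 9 of 2N it stood at 3.09 against 2.05. It was present in nuclei with chromosome 15 near 2 and near 3 copies alike, and 2 of the 8, both of 4N, had more than 60 breakpoints. The remaining nucleus of 4N, nucleus 12, had a high residual of 0.183. In 1 nucleus of 2N+ and 1 of 2N an upward step lay before the stretch, so the high segment can be wider than these 3 bins.

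The states of chromosomes 15 and 16 were then joined within nuclei. Both chromosome 15 and the inner part of 16 were at 3 or more copies in 21 of 35 nuclei of 2N+ (60%, interval 42.1 to 76.1%), against 3 of 47 in 2N (6.38%, interval 1.34 to 17.5%). Neither was in 3 of 35 nuclei of 2N+ (8.57%, interval 1.8 to 23.1%), against 34 of 47 in 2N (72.3%, interval 57.4 to 84.4%). Chromosome 15 alone was gained in 10 nuclei of 2N+ and 9 of 2N. The inner part of 16 alone was gained in 1 nucleus of each gate.

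**Figure D4:**
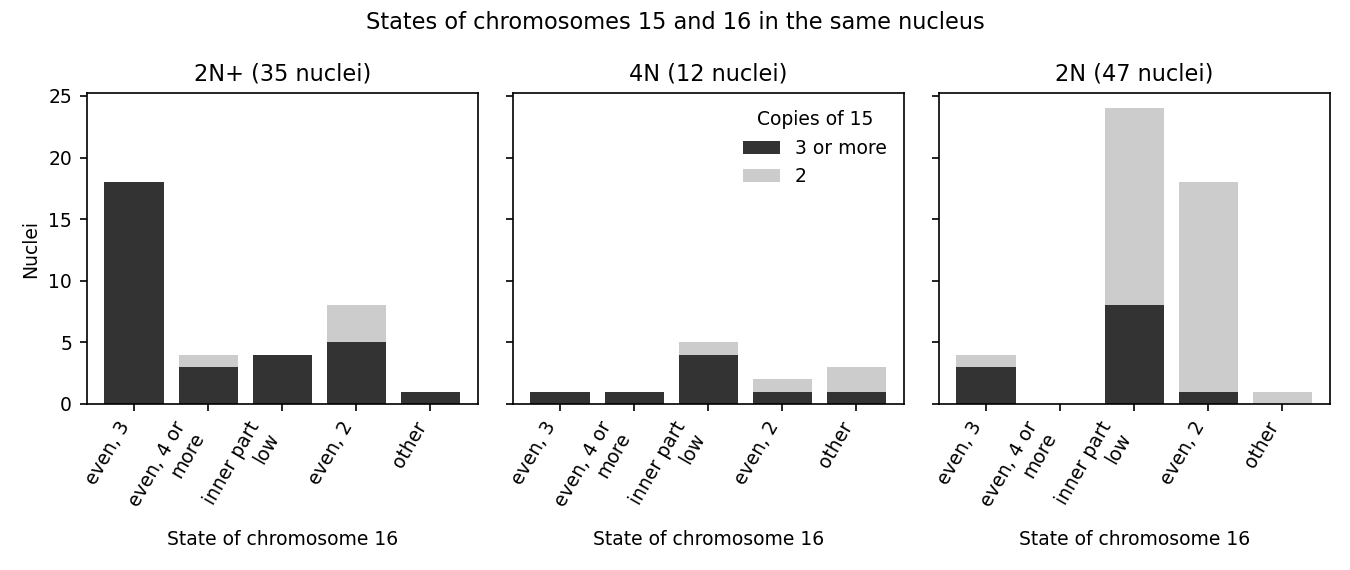
Nuclei (vertical axis) by state of chromosome 16 (horizontal axis) and copies of chromosome 15 (dark: 3 or more, light: 2) in 2N+, 4N and 2N from left to right. Chromosome 15 is gained in 31 of all 35 nuclei of 2N+ and 12 of all 47 of 2N. In 2N+ the tallest bar is 16 even at 3 copies, with 15 gained in all 18 nuclei. In 2N the tallest is the low inner part, with 15 gained in 8 of 24.

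As the bars of joint states show, all 18 nuclei of 2N+ with chromosome 16 even at 3 copies had a gained chromosome 15. So did all 4 with a low inner part, 3 of 4 even at 4 or more and 5 of 8 even at 2. The nucleus even at 4 or more without it was nucleus 30, with 2.10 copies of chromosome 15. Over all nuclei of 2N+ chromosome 15 was gained in 31 of 35 (88.6%), which lies within the intervals of these 4 groups. The intervals were 81.5 to 100% for even at 3 and 39.8 to 100% for the low inner part. For even at 4 or more the interval was 19.4 to 99.4%, and for even at 2 it was 24.5 to 91.5%. In 2N chromosome 15 was gained in 8 of 24 nuclei with a low inner part (33.3%, interval 15.6 to 55.3%). It was gained in 1 of 18 even at 2 (5.56%, interval 0.141 to 27.3%) and in 3 of 4 even at 3. The intervals of the first 2 groups of 2N overlap.

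Chromosomes 3 and X, which also stood higher in 2N+, were set beside these states. Among 30 nuclei of 2N+ with chromosome 3 at 4 or more copies, 29 had a gained chromosome 15, 20 a gained inner part of 16 and 19 both. Among the 5 other nuclei of 2N+, 2 had both gained. In 2N only 5 nuclei had chromosome 3 at 4 or more, of which 4 had 15 gained, 3 the inner part of 16 and 3 both. Of the other 42 nuclei of 2N, 8 had a gained chromosome 15, 1 a gained inner part of 16 and none both. All 24 nuclei of 2N+ with chromosome X at 2 or more copies, and all 4 such nuclei of 2N, had a gained chromosome 15. With X below 2 copies it was gained in 7 of 11 nuclei of 2N+ and 8 of 43 of 2N. The inner part of 16 was gained in 16 of 24 nuclei of 2N+ with X at 2 or more and in 6 of 11 with X below 2. In 2N it was gained in 1 of 4 and 3 of 43 such nuclei.

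Averaged over nuclei, chromosome 15 was at 2.88 ± 0.334 copies in 2N+ and 2.27 ± 0.392 in 2N (SD, n = 35 and 47), a difference of 0.613. Its 203 bins differed by 0.568 to 0.672, so that all 203 were at least 0.3 copies higher in 2N+, where 30.8% of all 4898 bins used from chromosomes 1 to X were. On chromosome 16, 128 of 192 bins passed this difference. They comprised 96 of 96 in the inner part, 25 of 31 at the proximal end and 7 of 65 at the distal end, 6 of the 7 being the second low part. At a difference of 0.5 copies, which 21.8% of all bins passed, the counts were 203 of 203 on chromosome 15, 95 of 96 in the inner part, 0 of 31 at the proximal end and 6 of 65 at the distal end. At 0.2 copies, which 40.5% of all bins passed, every bin of both chromosomes did. The median difference was 0.636 copies in the inner part, 0.309 at the proximal end and 0.263 at the distal end.

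For a share of gained nuclei on every chromosome, gained was taken from 2.5 copies on, except from 3.5 on chromosome 3, which stood near 3 copies or more in every nucleus, and from 1.5 on X. Among all 20 chromosomes, 5 (25%) had a share of gained nuclei whose interval in 2N+ lay above that in 2N, namely chromosomes 2, 3, 15, 16 and X. The difference in mean copies of chromosome 15 ranked 2 of the 20 and that of chromosome 16 ranked 4, at 0.601 (2.74 ± 0.637 in 2N+ and 2.14 ± 0.272 in 2N, SD). Chromosome 3 ranked 1 with 0.754 copies and X ranked 3 with 0.611. The differences of 15, X and 16 thus lay close together, from 0.601 to 0.613 copies. Chromosomes 15 and 16 were chosen with earlier results of these data known, so their ranks are description and no separate support.

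The bulk libraries of 2N+ and 2N, 1 each, were set beside the mean of nuclei on a scale where chromosomes 4, 7, 9, 10 and 13 stand at 2 copies. Chromosome 15 was at 2.83 copies in the 2N+ bulk library and 2.83 ± 0.308 over 2N+ nuclei (SD, n = 35). It was at 2.26 in the 2N bulk library and 2.24 ± 0.375 over 2N nuclei (SD, n = 47). The inner part of 16 was at 2.59 in the 2N+ bulk library and 2.69 ± 0.618 over its nuclei (SD), and at 2.10 in the 2N bulk library and 2.06 ± 0.257 over its nuclei (SD). For the proximal end the 2N+ bulk library gave 2.93 and its nuclei 2.93 ± 0.646, and the 2N bulk library 2.66 and its nuclei 2.64 ± 0.452 (SD). Each of these bulk values lay within 0.1 copies of the mean of nuclei of its gate.

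**Figure D5:**
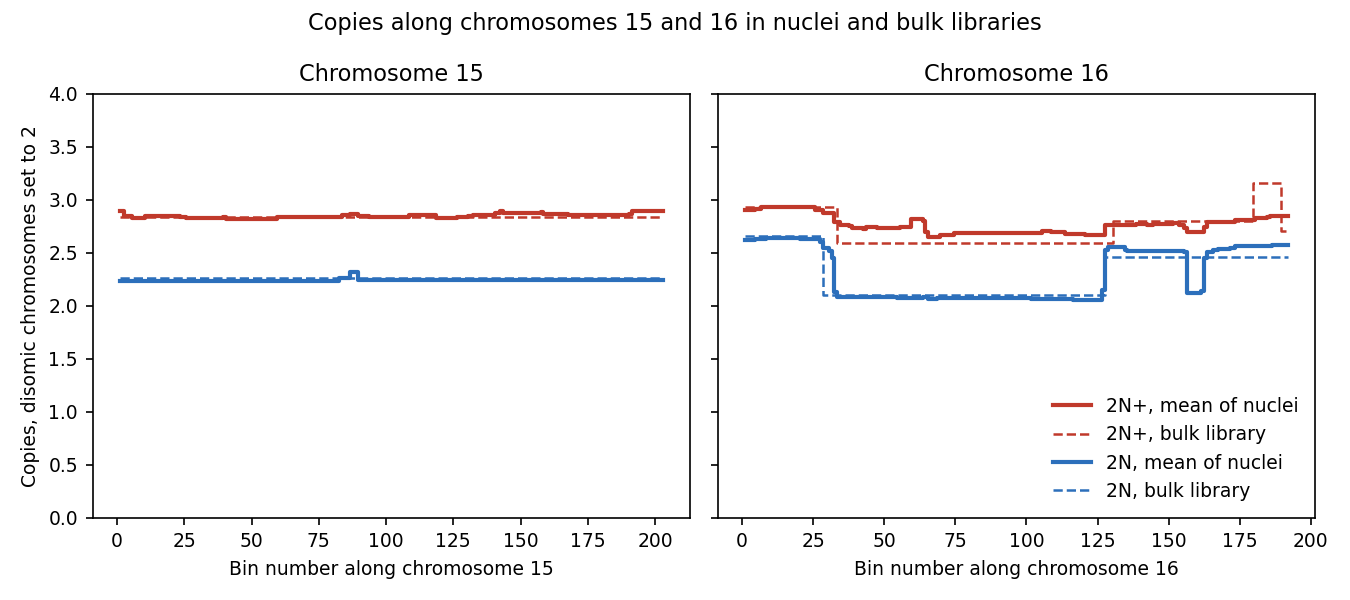
Copies along chromosomes 15 (left) and 16 (right) by bin number, with chromosomes 4, 7, 9, 10 and 13 set to 2 copies, as the mean of nuclei (solid) and the bulk library (dashed) of 2N+ (red) and 2N (blue). Solid and dashed lines lie close together over chromosome 15. The dip of the 2N nuclei at the second low part, to 2.11 copies, has no counterpart in the 2N bulk library at 2.46.

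The bulk libraries had steps near the borders of the inner part and none at the second low part. In the 2N+ bulk library chromosome 16 stepped down at 19766867 and up at 67745259, and in the 2N bulk library down at 17206229 and up at 66290028. The second low part was at 2.80 copies in the 2N+ bulk library, against 2.69 ± 0.599 over 2N+ nuclei (SD). In the 2N bulk library it was at 2.46 copies, against 2.11 ± 0.271 over 2N nuclei (SD), the wider gap of the 2. A stretch of 10 bins near the distal tip, chr16:92023020-96888127, stood at 3.16 copies in the 2N+ bulk library, where the rest of the distal end was at 2.80. Over 2N+ nuclei the same stretch averaged 2.83 ± 0.599 and the rest 2.78 ± 0.552 (SD), and 1 of 35 nuclei had it at least 0.5 copies higher. The lines of nuclei and bulk in the plot along the chromosomes also part between the 2 proximal steps of 2N. There, at bins 29 to 32, the mean of 2N nuclei was 2.54 to 2.45 copies and the 2N bulk library at 2.10. At bins 60 to 63 the 2N+ nuclei averaged 2.82 and the 2N+ bulk library 2.59. These bins hold the peak of nucleus 28 of 2N+, at 5.72 copies by its multiplier. At bin 59, just before it, the 2N+ nuclei averaged 2.74 and the bulk library was also at 2.59.

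In the 12 nuclei of 4N the multiplier ran from 2.05 to 4.90, and in 4 nuclei above 3, so that 3 copies or more can there also be an ungained chromosome in a doubled set. Shares by copies were 8 of 12 for chromosome 15 (66.7%, interval 34.9 to 90.1%), 10 of 12 for the proximal end of 16, 5 of 12 for the inner part (41.7%, interval 15.2 to 72.3%) and 9 of 12 for the distal end. Scaled to chromosomes 4, 7, 9, 10 and 13 at 2 copies, they were 6 of 12 for chromosome 15 (50%, interval 21.1 to 78.9%) and 1 of 12 for the inner part (8.33%, interval 0.211 to 38.5%). On this scale chromosome 15 ranged from 1.99 to 3.37 over 4N nuclei with a median of 2.42, and the inner part of 16 from 1.96 to 2.93 with a median of 2.04. The same scale left the counts of 2N+ and 2N as they were, at 31 of 35 and 12 of 47 for chromosome 15 and 22 of 35 and 4 of 47 for the inner part.

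The inner part lay below both ends in 5 of 12 nuclei of 4N (41.7%, interval 15.2 to 72.3%), and 4 of the 5 also had the second low part. Scaled to chromosomes 4, 7, 9, 10 and 13 at 2 copies, the inner part lay below both ends in 4 of 12 (33.3%, interval 9.92 to 65.1%). In nucleus 4 of 4N, whose multiplier was 4.10, the proximal end stood at 6.17 copies, the inner part at 3.98, the second low part at 4.25 and the rest of the distal end at 5.91. Chromosome 15 stood at 4.08 copies in that nucleus. Nuclei 6, 8 and 11 of 4N had 1.98, 2.12 and 2.04 copies in the inner part, against 2.999, 3.25 and 3.11 at the proximal end. By the multiplier the pattern thus lay near 3 and 2 copies in nuclei 6, 8 and 11 and near 6 and 4 in nucleus 4. On the scale of 2 copies nucleus 4 stood at 3.03 copies at the proximal end, 1.96 in the inner part and 2.83 at the distal end. Its ratio of inner part to proximal end was 0.645, against 0.661, 0.651 and 0.657 in nuclei 6, 8 and 11. The 2 levels therefore rest on the multiplier alone. Nucleus 5 of 4N had the low inner part alone, and nucleus 12 the second low part alone, by these thresholds. On the scale of 2 copies nucleus 5 stood at 2.61 copies at the proximal end, 2.00 in the inner part and 2.34 at the distal end. It then no longer passed the difference of 0.5 copies. In nucleus 12 the inner part was at 2.08 copies, the proximal end at 2.66 and the distal end at 2.55, which is under 0.5 copies from the inner part. All 12 nuclei of 4N had at least 1 step on chromosome 16, and 4 had a step on chromosome 15. With 12 nuclei the intervals of 4N overlap those of 2N+ and of 2N for chromosome 15 on the scale of 2 copies. For a gained inner part of 16 on that scale, the interval of 4N (0.211 to 38.5%) lies below that of 2N+ (44.9 to 78.5%). It overlaps that of 2N (2.37 to 20.4%). By the multiplier the interval of 4N for the inner part (15.2 to 72.3%) overlaps both.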

How the data were processed

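Per the labels, nuclei were sorted by DNA content and amplified with the SeqXE kit. The submitters' processing notes name Bowtie 1.0 and mm9. How bins, GC correction and segments were made is not given in the sources used here. Values were deposited by the authors as ratios of each bin to its library's own level, not as counts, so depth is unknown. Positions are mm9, counted from 1.

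Ratios were centred on the autosomal median of the library. Bins were used where the median over nuclei lay between 0.25 and 4.0. Multipliers from 1.5 to 6.0 in steps of 0.05 were tried over autosomal bins. Copies of a chromosome or part are the median of its bins. A step or difference counted from 0.5 copies, and a position was named when 5 or more nuclei had it. The chromosomes, parts and gene lists were chosen with earlier results of these data known. One listed gene is not reported here. Single nuclei and short stretches were picked out with their values in view. The work used numpy 2.4.6, scipy 1.17.1, pandas 2.3.3 and matplotlib 3.10.9 under Python 3.11.15.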

Additional observations from a re-analysis of the deposited data

How the results depend on the processing

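Alternatives were other thresholds, scales, filters, merging windows and the removal of nuclei with high residuals or many breakpoints. The multiplier from chromosome medians and those for the second low part and the short stretch of 15 were chosen after seeing the data. Of 232 values of 41 results, 221 stayed within the interval of the reported share, within 1.5 times the reported count or, for the 8 differences between bulk and nuclei, within 1 SD of nuclei. Some of these 8, all near 0, changed sign when libraries were centred on the mean. For 4N, the inner part of 16 and both gained together fell to 8.33% (1 of 12) with the multiplier limited to 2.0 to 3.0, and likewise with chromosomes 4, 7, 9, 10 and 13 at 2 copies. The proximal end of 4N was at 100% (9 of 9) without nuclei with more than 60 breakpoints. Steps of at least 0.7 copies were present on 16 in 66.7% of 4N nuclei. With any change above 0.02 in ratio, steps were present in 2N+ in 31.4% of nuclei on 15 and 60% on 16, and in 2N in 12.8% and 65.96%. The recurrent positions on 15 were 1 at the exact bin and 1 without nuclei with more than 60 breakpoints. The short stretch of 15 was high in 5 nuclei at 0.7 copies. No paired analysis was possible because a nucleus number pairs nothing across gates and no test between gates exists. The lack of depth limits every value: changes within a bin, or smoothed away by the segmentation, could not be seen.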
